A study of Homo sapiens with 6 samples.

Results

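Genes that mark glutamatergic neurons and the layers of the cerebral cortex were followed through the ChIP-seq peak lists of human neurons, 9 genes in all. The neurons were differentiated from neural progenitor cells (NPCs) of the line KOLF2.1J, which is an established line of human induced pluripotent stem cells. There were 6 samples, namely 2 libraries with an antibody against CTCF, 2 with an antibody against the acetylated histone mark H3K27ac and 2 input libraries without antibody. All groups came from the same line and were grown by the same protocol, with no treatment or genotype compared. The genes were SLC17A6, SLC17A7, TBR1, EOMES, BCL11B, FEZF2, CUX1, CUX2 and POU3F2. A peak was assigned to a gene when it shared at least 1 bp with the gene's GRCh38 interval extended by 20 kb on each side. That rule gave 92 of the 78694 H3K27ac peaks and 49 of the 43677 CTCF peaks.

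Glutamatergic neurons load glutamate into synaptic vesicles with transporters of the SLC17 family, and cortical ones are born from progenitors in an order that sets their layer. The T-box factor EOMES marks intermediate progenitors and TBR1 the early-born deep layer neurons that follow. BCL11B and FEZF2 specify subcortically projecting deep layer neurons, and CUX1, CUX2 and POU3F2 are best known from upper layer neurons, POU3F2 also from progenitors. H3K27ac accumulates on nucleosomes of active promoters and enhancers, and CTCF is a zinc finger protein that holds the anchors of chromatin loops.

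Each antibody has 1 deposited peak list that covers both of its libraries, so no spread between replicates, no p-value and no read depth can be given. Values are therefore descriptions of these lists. For H3K27ac the value was read as the fold enrichment at the peak, a name inferred from its values and layout. For CTCF it is a peak signal on an unstated scale, so the lists are never compared by value. The percentile of a peak is its rank by that value in its own list. In cultured populations, a mark on fewer cells and a weaker mark per cell cannot be told apart.

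The stretch around the start of transcription is shown first, because the peaks there differed between the genes. Each window runs from 250 bases before the start to 50 bases after it, 5′ to 3′ along the gene, from RefSeq promoters on GRCh38.p14. Promoter entries matched 8 of the 9 genes by symbol, with 10 starts in all, and FEZF2 had none. Capitals mark bases that lay inside an H3K27ac peak. The 6 windows below hold the widest contrasts: SLC17A6 (chr11:22338131-22338430, plus strand), whose window was marked from end to end; EOMES (chr3:27722274-27722573, minus strand), with no marked base; BCL11B (chr14:99272148-99272447, minus strand), whose start lay in a CTCF peak; the paralogues CUX1 (chr7:101815757-101816056, plus strand) and CUX2 (chr12:111033915-111034214, plus strand) at their first start; and POU3F2 (chr6:98834324-98834623, plus strand), which had the strongest mark.
SLC17A6: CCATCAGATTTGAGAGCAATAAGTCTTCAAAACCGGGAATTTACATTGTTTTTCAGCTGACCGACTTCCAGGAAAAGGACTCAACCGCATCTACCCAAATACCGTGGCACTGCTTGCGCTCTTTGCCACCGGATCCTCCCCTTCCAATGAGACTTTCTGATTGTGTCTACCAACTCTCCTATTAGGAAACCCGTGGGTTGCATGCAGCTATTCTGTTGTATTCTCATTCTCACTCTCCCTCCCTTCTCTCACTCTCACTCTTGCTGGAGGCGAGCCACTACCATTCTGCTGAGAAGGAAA
EOMES: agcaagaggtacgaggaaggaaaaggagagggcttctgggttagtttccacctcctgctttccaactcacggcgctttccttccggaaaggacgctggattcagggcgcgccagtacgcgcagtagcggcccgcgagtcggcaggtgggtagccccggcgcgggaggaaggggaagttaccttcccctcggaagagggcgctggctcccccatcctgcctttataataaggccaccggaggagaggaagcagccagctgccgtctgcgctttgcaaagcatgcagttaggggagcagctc
BCL11B: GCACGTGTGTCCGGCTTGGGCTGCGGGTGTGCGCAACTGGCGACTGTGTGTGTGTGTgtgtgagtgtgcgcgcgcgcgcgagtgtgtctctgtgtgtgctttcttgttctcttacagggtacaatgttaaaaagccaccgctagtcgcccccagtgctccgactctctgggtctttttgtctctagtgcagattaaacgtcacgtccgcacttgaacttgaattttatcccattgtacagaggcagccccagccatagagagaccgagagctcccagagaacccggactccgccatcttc
CUX1: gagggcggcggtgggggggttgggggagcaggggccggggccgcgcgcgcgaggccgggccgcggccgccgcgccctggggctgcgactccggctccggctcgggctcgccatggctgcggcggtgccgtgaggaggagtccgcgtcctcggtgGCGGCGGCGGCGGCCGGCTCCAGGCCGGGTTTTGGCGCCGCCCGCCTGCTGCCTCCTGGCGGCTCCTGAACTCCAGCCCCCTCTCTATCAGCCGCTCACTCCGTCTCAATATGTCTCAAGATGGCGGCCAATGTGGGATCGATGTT
CUX2: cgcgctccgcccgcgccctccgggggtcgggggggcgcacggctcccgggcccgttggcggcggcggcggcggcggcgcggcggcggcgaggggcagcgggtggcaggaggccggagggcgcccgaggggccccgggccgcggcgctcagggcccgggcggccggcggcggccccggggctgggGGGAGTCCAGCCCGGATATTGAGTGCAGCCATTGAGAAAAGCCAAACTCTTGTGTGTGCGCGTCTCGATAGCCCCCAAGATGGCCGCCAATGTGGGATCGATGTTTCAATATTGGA
POU3F2: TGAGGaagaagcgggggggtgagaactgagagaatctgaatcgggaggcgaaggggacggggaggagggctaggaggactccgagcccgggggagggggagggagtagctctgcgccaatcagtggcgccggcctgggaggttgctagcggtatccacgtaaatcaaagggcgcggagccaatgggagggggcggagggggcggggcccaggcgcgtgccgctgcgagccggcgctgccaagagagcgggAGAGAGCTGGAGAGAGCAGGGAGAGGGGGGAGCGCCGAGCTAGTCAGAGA

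Acetylation covered 300 of the 300 bases at SLC17A6, 146 at CUX1, 116 at CUX2, 57 at BCL11B, 55 at POU3F2 and 0 at EOMES. The windows of SLC17A7 and TBR1 held 0 marked bases, as did the second listed starts of CUX1 and CUX2. At CUX1 and CUX2 the capitals ran across the start to the end of the window. At POU3F2 a few capitals opened the window, from the peak upstream. After 245 unmarked bases, which separated 2 broad acetylated peaks, capitals resumed at the start base itself. At BCL11B the capitals lay only in the part farthest upstream, and the start sat in a gap of 243 bp between 2 narrow acetylated peaks.

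A start lay inside an H3K27ac peak in 4 of the 8 genes, SLC17A6, CUX1, CUX2 and POU3F2, against 46.6% of the 15813 protein-coding genes with a promoter entry. This is near the background share. A start lay inside a CTCF peak in 2 of the 8, BCL11B and POU3F2, against 19.9% of those genes. The G and C content of the first-start windows was lowest at TBR1, 43.3%, and SLC17A6, 48%, both below the lower quartile of 53% over 22156 promoters. It was 61.7% at EOMES, 55.7% at BCL11B, 68.3% at POU3F2, 71.7% at SLC17A7, 75.3% at CUX1 and 76% at CUX2. The second starts of CUX1 and CUX2 had 78.3% and 53%. The median over all promoters was 62.3%.

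The windows of CUX1 and CUX2 shared a run of 20 bases, GCCAATGTGGGATCGATGTT, that began at base 31 after the CUX1 start and base 20 after the CUX2 start, counted with the start as base 1. It was the longest run shared by any of the 28 pairs of first-start windows, the next being 12 bases. CUX1 and CUX2 encode related homeodomain proteins with CUT repeats. The 20 bases lay inside an H3K27ac peak in both genes. They directly followed the letters ATGGCG at CUX1 and ATGGCC at CUX2, which open with ATG, the letters of a start codon. The run can therefore be coding sequence of the 2 paralogues and not a promoter element, which was not tested. It ended with the CUX1 window, so its full length is not known. Searched on both strands, the letters AGGNGGC, the core of a CTCF site, were found in 5 of the 10 windows (SLC17A7, the first start of CUX1, both starts of CUX2 and POU3F2) and in 41.2% of all promoters. BCL11B, whose whole window lay in a CTCF peak, did not hold these letters. The T-box letters GGTGTGA, the proneural E-box CAGATG and the octamer letters ATGCAAA were in 0 of the 10 windows, against 3.26%, 12.2% and 3.83% of all promoters. The 4 motifs share no match, since only the CTCF letters were found, and a match describes letters only.

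**Figure D1:**
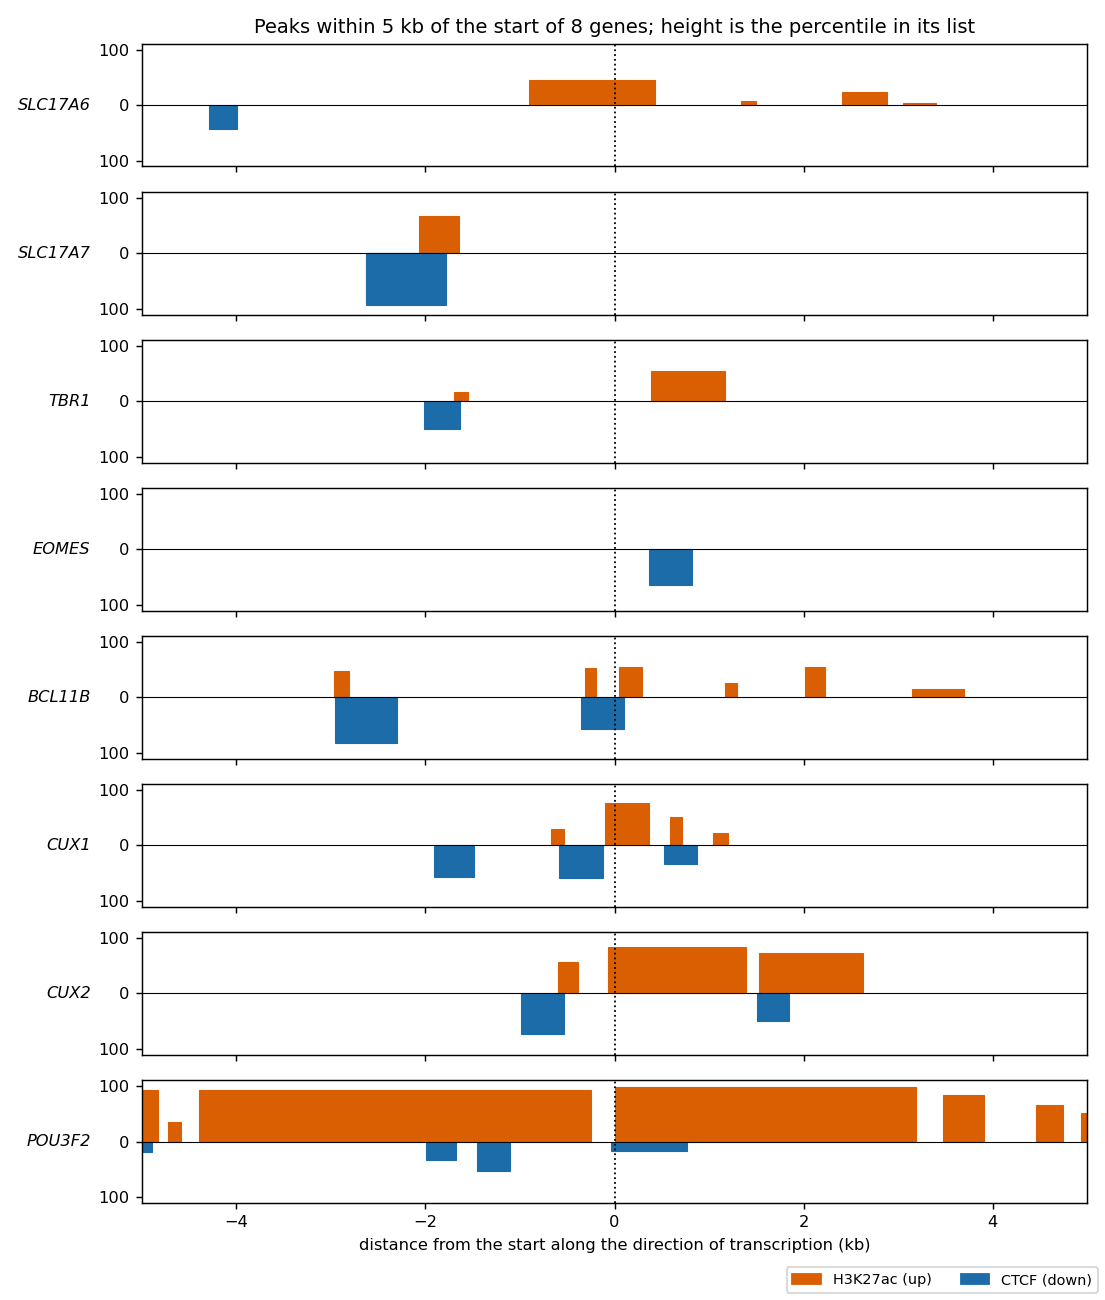
H3K27ac peaks (orange, upward) and CTCF peaks (blue, downward) within 5 kb of the first listed start of 8 genes, in kb along the direction of transcription. Bar height is the percentile of the peak in its own list and bar width its extent. POU3F2 is acetylated across most of the window, whereas EOMES has a CTCF peak alone.

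Neither vesicular glutamate transporter had a strong H3K27ac peak in its own gene. SLC17A6 encodes VGLUT2, the transporter of many subcortical and immature glutamatergic neurons, and spans 41.1 kb on chromosome 11. It held 7 H3K27ac peaks, all in the gene interval. Their fold enrichments from the start onward were 4.47, 2.70, 3.57, 2.43, 3.96, 4.28 and 6.55. The highest, from 22371525 to 22371718, lay 33.2 kb into the gene at percentile 67.6. The peak over the start, from 22337473 to 22338809, was the widest at 1337 bp but stood at percentile 45.5. It also overlapped SLC17A6-DT, named as the divergent transcript of the gene. The only CTCF peak, from 22334089 to 22334392, had a signal of 72.5 at percentile 42.1 and lay 4.15 kb before the start.

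SLC17A7 encodes VGLUT1, the transporter of mature cortical pyramidal neurons, and spans 12.1 kb on chromosome 19. No H3K27ac peak lay in the gene. The flank before its start held 4, with fold enrichments of 6.61, 7.05, 3.51 and 34.0. The nearest, from 49443169 to 49443591, lay 1.87 kb before the start, measured at its summit. The strongest, from 49452518 to 49454197 at percentile 97.6, overlapped ALDH16A1, a neighbouring gene, and the peak of 7.05 overlapped PIH1D1. The extended interval therefore gives SLC17A7 a high value that lies in another gene. Its CTCF signals were higher close by: the interval from 49443304 to 49444158 was listed with 2 summits, 2.05 and 2.38 kb before the start, at signals of 253 and 279, and it shared bases with the nearest acetylated peak. Signals of 138, 28.1 and 31.2 made up the rest of its 5 CTCF peaks.

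Between the 2 transporters the order thus turned on the window. Inside the gene, SLC17A6 reached 6.55 and SLC17A7 was without a peak. In the extended interval, SLC17A7 reached 34.0 and SLC17A6 6.55.

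Within the extended interval, the T-box genes had the lowest H3K27ac coverage of the 9. Inside the gene interval this did not hold for TBR1, which was covered over 8.18%, against 6.05% at SLC17A6 and 0% at SLC17A7. EOMES, also called TBR2, spans 6.76 kb on chromosome 3 and had 0 H3K27ac peaks within 20 kb, as did 3745 of 19974 protein-coding genes. It had 2 CTCF peaks. The one from 27721500 to 27721957 lay inside the gene with a signal of 132 at percentile 63.2, its summit 603 bp after the start. The other, from 27712012 to 27712477, had a signal of 224 at percentile 84.4 and lay 10.1 kb after the start, beyond the gene's end. TBR1 spans 9.57 kb on chromosome 2 and had 2 H3K27ac peaks. The stronger, from 161416688 to 161417470, had a fold enrichment of 5.05 at percentile 54.2 and began 391 bp after the start. The weaker, from 161414603 to 161414750, reached 3.24 at percentile 16.3 and lay 1.62 kb before the start, where it met a CTCF peak of signal 92.0 from 161414287 to 161414667 over 65 bp. The other CTCF signals at TBR1 were 40.7 inside the gene and 80.2 after it. None of the T-box peaks of either mark was above percentile 75 of its list except the EOMES peak of 224.

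**Figure D2:**
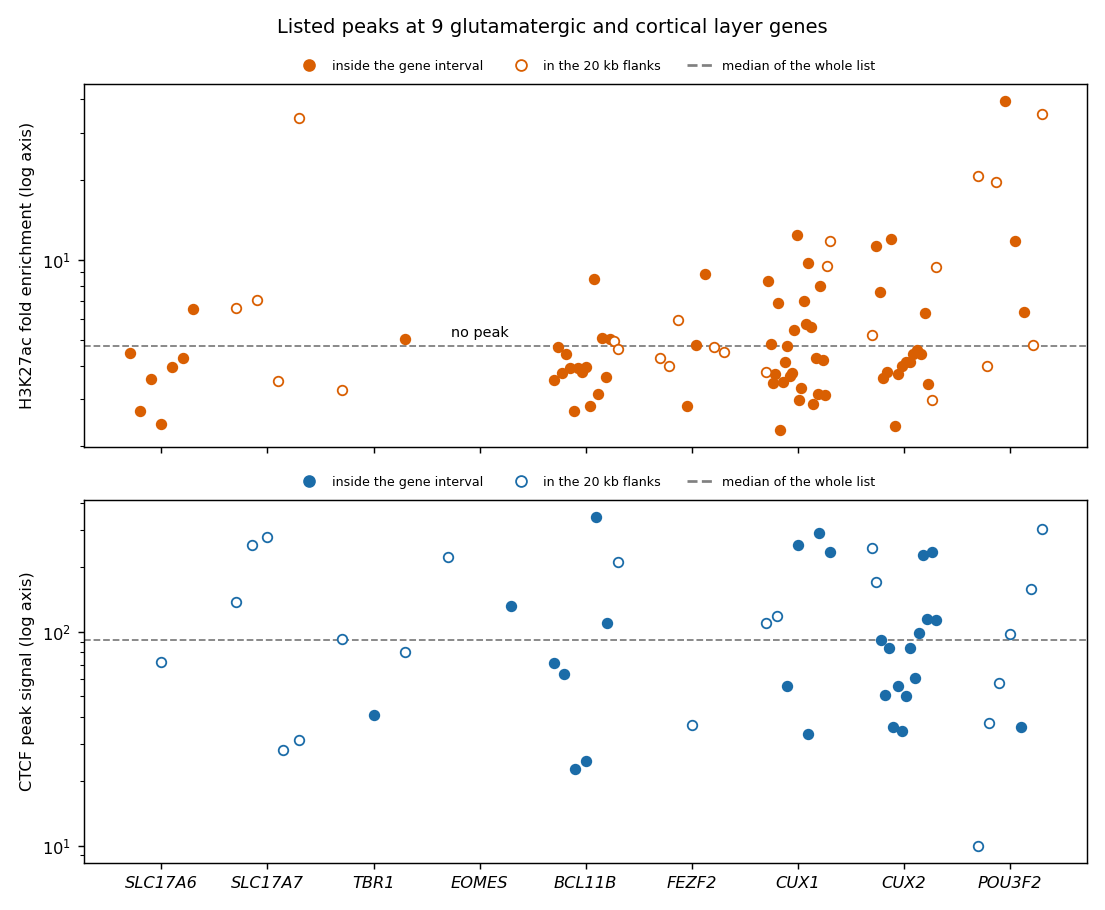
Value of every listed peak at the 9 genes, H3K27ac fold enrichment above and CTCF signal below, both on log axes. Filled points overlap the gene interval and open points lie in the 20 kb flanks; within a gene, points run from low to high coordinate, and the dashed line is the median of the whole list (4.74 and 91.0).

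Deep layer genes had many but modest acetylated peaks. BCL11B encodes CTIP2, a zinc finger factor of subcerebral projection neurons, and spans 103 kb on chromosome 14. It had 17 H3K27ac peaks with a lowest fold enrichment of 2.71, a median of 3.94 and a highest of 8.49. The highest, from 99245532 to 99246859, lay 25.8 kb into the gene at percentile 76.2 and was the only one of the 17 above percentile 75. The pair of peaks around the start reached 5.04 (from 99271910 to 99272147) and 4.97 (from 99272391 to 99272513). A CTCF peak from 99272094 to 99272550 spanned the start, with a signal of 109 at percentile 56.4 and a summit 110 bp before the start, in the gap between that pair. The strongest CTCF peak of all 9 genes, from 99266485 to 99266967, lay inside BCL11B with a signal of 345 at percentile 98.7, and it met no H3K27ac peak. A further CTCF peak of 211, from 99274495 to 99275155, stood 2.73 kb before the start and shared 153 bp with an acetylated peak of 4.62. The remaining CTCF signals were 71.4, 63.8, 24.9 and 22.8.

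FEZF2 encodes a zinc finger factor that acts ahead of BCL11B in corticospinal neurons, and spans 3.87 kb on chromosome 3. Its 8 H3K27ac peaks had fold enrichments of 4.26, 3.98, 5.94, 2.83, 4.78, 8.86, 4.69 and 4.50 in order of coordinate. The strongest, from 62372563 to 62374316, was 1754 bp wide, crossed the higher-coordinate end of the gene and stood at percentile 77.4. FEZF2 had more H3K27ac peaks per 100 kb of extended interval than any of the other 8 genes, 18.2 against an all-gene median of 3.86. The sole CTCF peak, from 62368680 to 62369479, was weak, with a signal of 36.6 at percentile 17.8, and met no acetylated peak.

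Among the upper layer genes, CUX1 and CUX2 had many H3K27ac peaks of modest value and POU3F2 had fewer and stronger ones. CUX1 spans 468 kb on chromosome 7 and had 28 H3K27ac peaks, with a lowest fold enrichment of 2.29, a median of 4.23 and a highest of 12.3. The highest, from 102111354 to 102112085, lay inside the gene at percentile 85.1. The peak over the first start, from 101815911 to 101816367, reached 8.31 at percentile 75.5. Peaks of 11.8 and 9.50 in the flank beyond the gene overlapped SH2B2, the next gene. The 7 CTCF peaks fell into 2 places. Near the first start lay signals of 109, 119 and 55.5, and the last 50 kb of the gene held signals of 253, 33.3, 290 and 236. The strongest ran from 102272164 to 102272648 at percentile 94.4. Of the 7, the peaks of 119 (from 101815421 to 101815883) and 55.5 (from 101816534 to 101816883), both beside the start, met an acetylated peak.

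CUX2 spans 316 kb on chromosome 12 and had 18 H3K27ac peaks, with a lowest fold enrichment of 2.38, a median of 4.28 and a highest of 12.0. The highest, from 111068547 to 111069081, lay 34.6 kb into the gene at percentile 84.5. The peak over the first start, from 111034099 to 111035560, was close to it at 11.3 and percentile 83.2. CUX2 had the most CTCF peaks of the 9 genes, 16, with signals from 34.3 through a median of 87.4 to 247. The strongest, from 111024130 to 111024613, lay 9.78 kb before the first start, and a peak of 235, from 111313727 to 111314187, was the strongest inside the gene. The CTCF peaks that met acetylation had signals of 171 (from 111033177 to 111033631), 91.3 (from 111035673 to 111036013) and 34.3 (from 111194496 to 111195295). The first of these lay 768 bp before the first start.

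CUX1 and CUX2 were the pair of genes most alike in the strongest H3K27ac peak, by the difference of their percentiles among all protein-coding genes. Their fold enrichments of 12.3 and 12.0 stood at percentiles 44.5 and 43.6. BCL11B and FEZF2 followed, at percentiles 34.5 and 35.4. With 1 list there is no spread against which the members of either pair could be told apart.

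POU3F2 encodes BRN2, a POU-domain factor, in a gene of 4.89 kb on chromosome 6. Its 8 H3K27ac peaks had fold enrichments of 20.5, 3.98, 19.6, 39.6, 11.8, 6.37, 4.79 and 35.1 in order of coordinate, which is also its direction of transcription. Together they ran over 22.8 kb, of which 21.1 kb lay inside peaks. The strongest, from 98834574 to 98837759, began at the start base and stood at percentile 98.4. Others ran from 98823651 to 98829752 (20.5), from 98830177 to 98834328 (19.6) and from 98841660 to 98846447 (35.1). The peak of 19.6 overlapped PNKY, a long noncoding RNA gene beside POU3F2 that is known from neural stem cells. These 4 peaks were each at least 2000 bp wide, and the other 8 genes had 0 such peaks, their widest being 1953 bp. Of the whole H3K27ac list, 4.44% of peaks reached that width.

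All 7 CTCF peaks of POU3F2 overlapped an H3K27ac peak, in a stretch of 22.8 kb of which acetylated peaks covered 21.1 kb. The strongest, from 98845713 to 98846197, had a signal of 303 at percentile 95.7 and lay in the last of the broad acetylated peaks, 11.4 kb after the start. The next, from 98839755 to 98840185, had a signal of 159 and lay 5.40 kb after the start, and one of 97.4, from 98833117 to 98833467, stood 1.28 kb before it. The peak over the start, from 98834542 to 98835341, was weak at 36.0 and percentile 17.2. The others had signals of 57.5, 37.6 and 9.92. The peak of 9.92, from 98828525 to 98829324, stood at percentile 0.37 with a q-value above 0.05. It overlapped the peak of 37.6, from 98828880 to 98829679, so the 7 are not all separate sites.

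**Figure D3:**
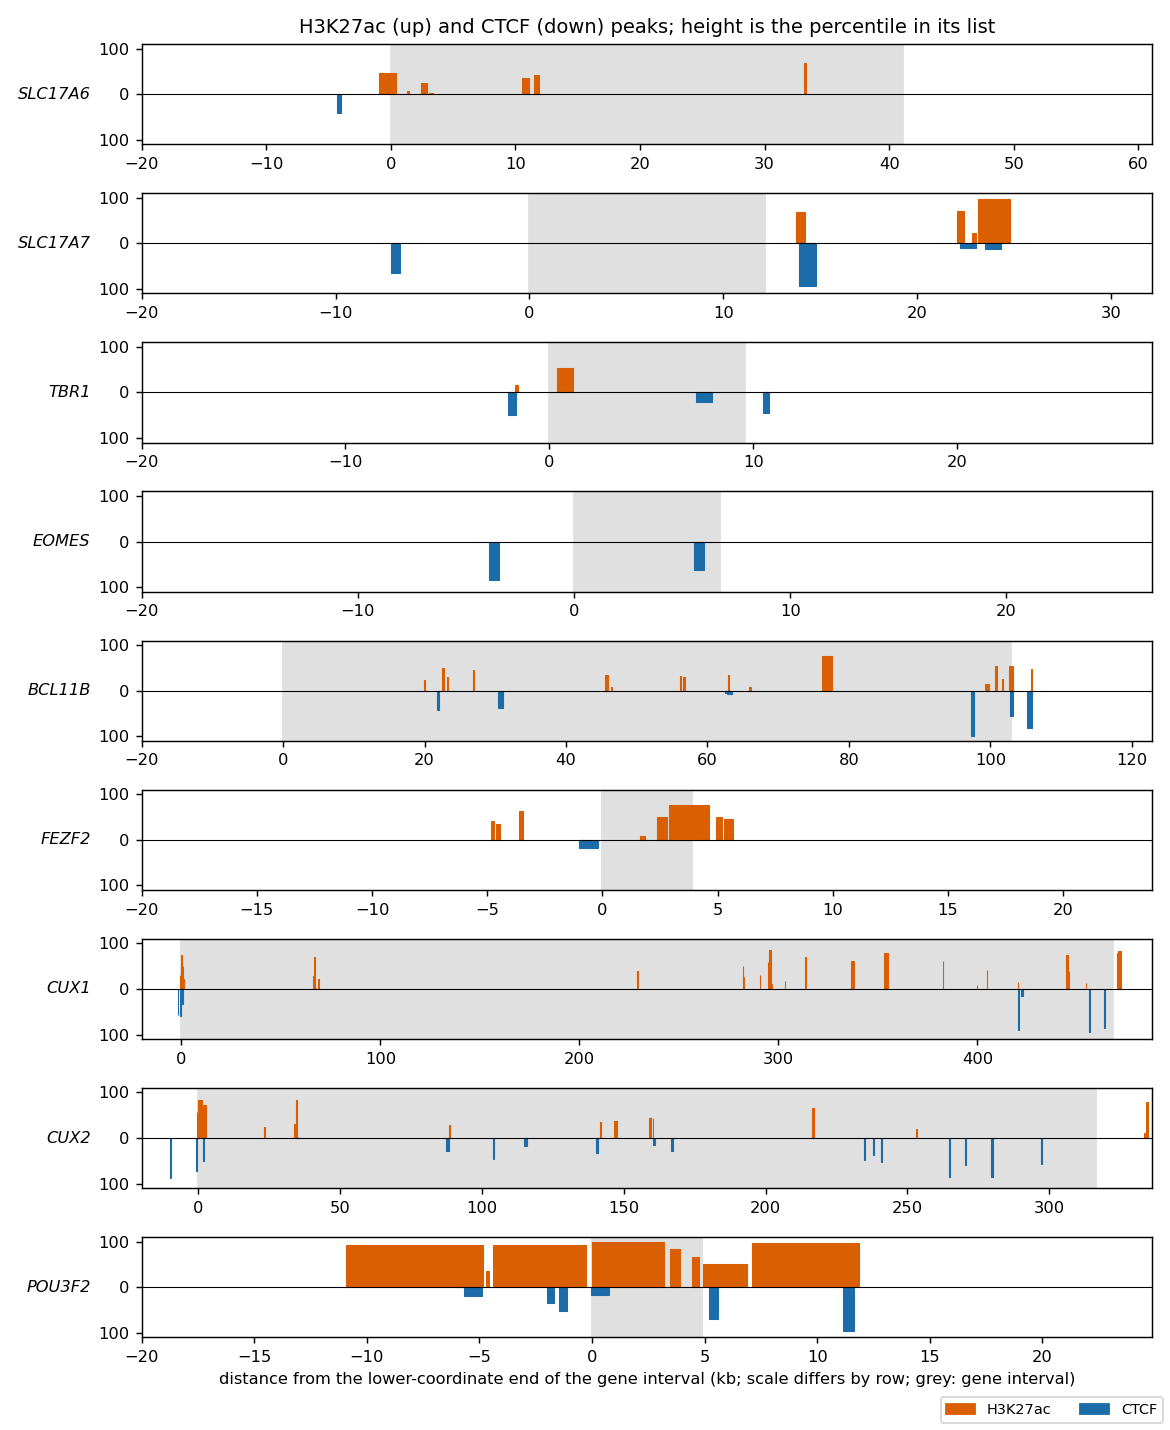
Peaks in the extended interval of each gene, H3K27ac upward in orange and CTCF downward in blue, with the percentile in its own list as height. The horizontal axis is the distance in kb from the lower-coordinate end of the gene and differs in scale by row. The grey band is the gene. Of the genes with a promoter entry, BCL11B, EOMES and SLC17A7 are transcribed from right to left. The direction of FEZF2, which had no entry, is not given. The 8 peaks of POU3F2 fill 46.9% of its extended interval.

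Across the 9 genes, 8 had an H3K27ac peak in the extended interval, against 81.3% of 19974 protein-coding genes, and 9 had a CTCF peak, against 83% of them. With the gene interval alone, 7 of 9 had an H3K27ac peak, against 69%. These counts are near the background shares. The strongest fold enrichment per gene ran in the order POU3F2 39.6, SLC17A7 34.0, CUX1 12.3, CUX2 12.0, FEZF2 8.86, BCL11B 8.49, SLC17A6 6.55, TBR1 5.05 and EOMES with no peak. Its median was 8.86, against 14.4 over all protein-coding genes, and 2 of the 9 genes were above that value. One of them, SLC17A7, was so through the peak in ALDH16A1. Inside the gene interval the medians were 8.49 for the 9 genes and 8.64 for all.

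Numbers of peaks gave another picture than their strength. H3K27ac peaks per 100 kb of extended interval had a median of 7.67 over the 9 genes and 3.86 over all genes, and 8 of the 9 were above the latter. The 92 peaks had a median width of 259 bp. It was 356 bp in the whole list and 373 bp within 20 kb of a protein-coding gene. More peaks therefore need not mean more separate acetylated regions. The share of the extended interval covered by H3K27ac was 46.9% at POU3F2, the highest of the 9, at percentile 99.95 among all genes. It was 8.10% at FEZF2, 5.06% at SLC17A7, 4.19% at SLC17A6, 3.54% at BCL11B, 2.32% at CUX1, 2.29% at CUX2, 1.88% at TBR1 and 0% at EOMES, and the all-gene median was 2.30%. Of the 92 peaks, 16 were above percentile 75 of the list, or 17.4%, with 5 each at POU3F2 and CUX1 and 3 at CUX2. Among all H3K27ac peaks within 20 kb of a protein-coding gene that share was 27.6%, so the 9 genes lay below it. Some of the 16 lay in a flank and over a neighbouring gene. These were the CUX1 peaks of 11.8 and 9.50 over SH2B2, a CUX2 peak of 9.36 over PHETA1 and the SLC17A7 peak over ALDH16A1. A q-value above 0.05 was attached to 5 of the 92, and its share in the whole list is not given here.

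For CTCF, the strongest signal per gene was 345 at BCL11B, 303 at POU3F2, 290 at CUX1, 279 at SLC17A7, 247 at CUX2, 224 at EOMES, 92.0 at TBR1, 72.5 at SLC17A6 and 36.6 at FEZF2. The median of 247 compares with 167 over all genes. Inside the gene interval the medians were 40.7 and 37.2. CTCF peaks per 100 kb had a median of 4.49, against 2.37, and were highest at POU3F2 with 15.6. Of the 49 CTCF peaks, 16 had the recurrent width of 800 bp that 33.4% of the list shared.

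CTCF and H3K27ac met in 21 of the 49 CTCF peaks, or 42.9% (95% Wilson interval 30.0 to 56.7%, counting error only). The share was 28.1% in the whole CTCF list and 32.6% of CTCF peaks within 20 kb of a protein-coding gene. The Wilson interval treats peaks as independent, which they are not. The 49 peaks hold 48 distinct intervals, and overlapping CTCF peaks at BCL11B and at POU3F2 met the same acetylated peak. It therefore does not measure a difference from the background. POU3F2 supplied 7 of the 21. Without it the share was 33.3%, 14 of 42. With CTCF peaks of the gene interval alone the share was 25%, 7 of 28, below the 35.4% of all CTCF peaks that overlap a protein-coding gene, so its side of the background depended on the flanks. With the CTCF summit inside the H3K27ac peak it was 22.4%, against 17.9% of the whole list, and with 100 bp either side of both summits 18.4%, against 12.5%. The remaining 14 were 4 each at SLC17A7 and BCL11B, 3 at CUX2, 2 at CUX1 and 1 at TBR1, with none at SLC17A6, EOMES or FEZF2. At least 1 such peak was held by 6 of the 9 genes, against 50.9% of all protein-coding genes.

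CTCF summits close to the start were counted after the values had been seen, as a description. A summit lay within 2 kb before a listed start in 5 of the 8 genes with a promoter entry (TBR1, BCL11B, CUX1, CUX2 and POU3F2), against 25.2% of 15813 protein-coding genes. Within 2 kb after a start it was 4 of the 8 (EOMES, CUX1, CUX2 and POU3F2), against 21.6%. The transporters SLC17A6 and SLC17A7 had neither, although the paired summits of SLC17A7 lay just outside, 2.05 and 2.38 kb before its start. The contrast was smaller when any part of a CTCF peak within 1 kb of a start, on either side, was counted. That held for 5 of the 8 genes (EOMES, BCL11B, CUX1, CUX2 and POU3F2), against 35.4%.

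Other genes of the glutamatergic and layer programme were read in the same way from a list of 18. In that list 16 had an H3K27ac peak in the extended interval, against 81.3% of all protein-coding genes. The median of the strongest peak inside the gene was 10.9. LMO4 had the highest, 45.7, next to POU3F3, a close relative of POU3F2, at 45.2. NEUROD2 and NEUROD6, bHLH factors of cortical glutamatergic neurons, had no peak. A start lay in an H3K27ac peak in 10 of the 15 with a promoter entry, against 46.6% of all protein-coding genes with one. Among 16 GABAergic genes, 12 had a peak, the median inside the gene was 5.17, and 3 of 13 starts were in a peak. In the extended interval the order differed. The median of the strongest value was 9.95 for the GABAergic genes, 12.6 for the list of 18 and 8.86 for the 9 genes. Median coverage was 4.85%, 1.54% and 3.54%, in the same order. SST, VIP, LHX6 and LHX8 had no peak.

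The label of the samples as neurons was set beside cell type lists. All 10 pan-neuronal genes had an H3K27ac peak inside the gene, with a median strongest value of 17.4, and so had all 8 neural progenitor genes, with a median of 32.3. Of all protein-coding genes 69% had such a peak, and their median was 8.64. Medians inside the gene were 9.32 for 6 astrocyte genes and 1.84 for 6 oligodendrocyte genes. They were 0 for 7 genes of other transmitters, 5 pluripotency genes and 7 liver and muscle genes. The 9 genes described here, at 8.49, thus lay below the pan-neuronal and progenitor lists. They also lay below the other glutamatergic and layer genes (10.9) and the astrocyte genes, and just below the all-gene median. Lower medians were those of the GABAergic genes (5.17), the oligodendrocyte genes and the lists at 0. SOX2, a transcription factor of neural progenitors, had the highest H3K27ac coverage of the extended interval among the 8 progenitor genes, 60.2%, and PAX6 the lowest, 4.26%. The median of that list was 25.7%, and POU3F2 was at 46.9%. The part of progenitor cells in the POU3F2 values was not tested.

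**Figure D4:**
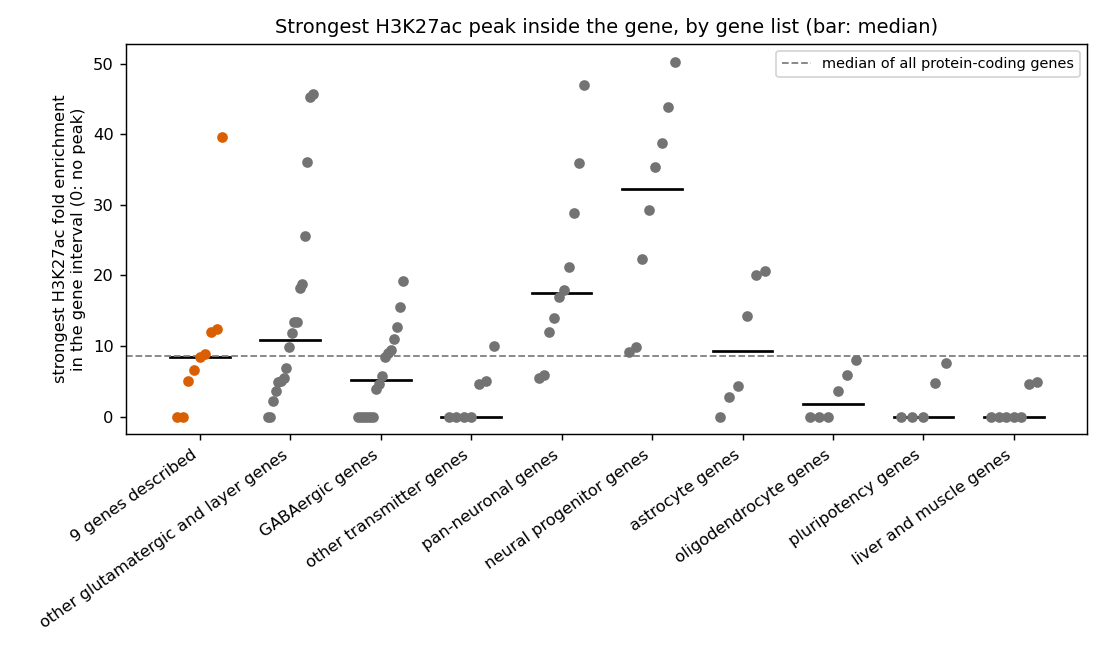
Strongest H3K27ac fold enrichment inside the gene interval for each gene of 10 lists, on a linear axis from 0 (no peak), with the median of each list as a bar and the median of all protein-coding genes, 8.64, as a dashed line. Among the 9 genes described, in orange, POU3F2 stands alone at 39.6 and the next is at 12.3.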

How the data were processed

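ChIP-seq was performed on 2 CTCF, 2 H3K27ac and 2 input libraries, and the deposited files were 1 peak list of 10 columns per antibody for both libraries together. Per the submitters' processing notes, the build was hg38 and cutadapt 1.16 was used; the aligner, peak caller and settings are not given in the sources used here. The CTCF list was filtered on the irreproducible discovery rate, as its name in the labels says. The deposited CTCF value is a signal of unstated scale, and the deposited H3K27ac value was read as a ratio, a fold enrichment, from its values and layout. The deposited lists also give −log10 q values and a score.

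Gene intervals and promoter windows came from RefSeq tables of GRCh38.p14, for 19974 protein-coding genes on 23 chromosomes. Exons, introns and the input libraries were not analysed here. Positions are 1-based. Overlap meant 1 bp or more, and the overlap code was tested on simulated intervals (Python 3.11.15, pandas 2.3.3). All genes and their strongest peaks are named, with start-holding peaks and up to 3 CTCF peaks meeting H3K27ac (the strongest); others were added after seeing values. Of the marker lists, the highest gene and those without a peak were named where a list is described (1 gene is not reported here), and POU3F3, SOX2, PAX6, GFAP and SYN1 were chosen after their values were seen. The members and lists were chosen with earlier results of these data known. Alternatives were the interval, stricter lists, the recurrent CTCF width and the definition of overlap. Neighbouring-gene peaks were left out in one alternative chosen after seeing the data.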

Additional observations from a re-analysis of the deposited data

How the results depend on the processing

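No paired analysis was possible because the 2 libraries of an antibody are merged in 1 list, which also leaves no replicate to leave out. Of 40 alternatives, 29 left the value within 1.5 times (counts), within its Wilson interval (shares) or equal (medians), and 11 moved it; none has a test. The strongest 50% of each list cut the H3K27ac peaks at the 9 genes from 92 to 37 and the CTCF peaks from 49 to 25. With the gene interval alone there were 28 CTCF peaks, of which 25% met H3K27ac in place of 42.9%. That share was 22.4% with the CTCF summit inside the H3K27ac peak and 18.4% with 100 bp either side of both summits. The median of the strongest H3K27ac value, 8.86, was 8.49 with the gene interval alone, 11.2 with 50 kb (all genes 19.2) and 8.49 without peaks in another gene. The CTCF median of 247 was 40.7 with the gene interval alone (all genes 37.2) and 290 with 50 kb (all genes 223). The cause of these moves was not tested beyond what the settings themselves remove or add. Depth is unknown, so a gene without a listed peak cannot be called unmarked.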

Other observations

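In some listed genes the strongest peak of the extended interval lay outside the gene, and 2 examples were chosen after their values were seen. The GFAP interval reached 62.8 while the gene itself reached 2.75, and the SYN1 interval reached 46.4 while the gene reached 5.54. SLC17A7 had 34.0 in the interval and no peak in the gene, and the other 7 of the 9 genes with a peak had the same strongest value under both definitions.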
